A study of Mus musculus with 9 samples.

Results

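The opioid system of the trigeminal ganglion (TG) was examined through 7 genes, of which 4 encode receptors (Oprm1, Oprd1, Oprk1 and Oprl1) and 3 encode peptide precursors (Penk, Pdyn and Pnoc). They were chosen by name among the 21809 genes of the mRNA table, and account for 55 of its 102122 transcripts. All 7 passed the filter on low values as gene sums, adding up the FPKM of its transcripts. Of the 55 transcripts, 21 reached a mean of 0.1 FPKM. FPKM counts fragments scaled to transcript length and library size, so levels can be compared between genes of different length.

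Total RNA of 9 libraries was sequenced, with 3 libraries in each group. All mice were male, wild type (WT) C57BL/6 animals of 8 weeks. Control mice received 10 µl saline into the temporomandibular joint (TMJ), and the labels place these libraries on day 3 (saline replicates 1 to 3). The other mice received 10 µl of CFA at 5 mg/ml, and TG were taken on day 3 (CFA3D replicates 1 to 3) or day 6 (CFA6D replicates 4 to 6). CFA, complete Freund's adjuvant, is an oil emulsion of killed mycobacteria that inflames the joint and is used as a model of temporomandibular disorder. Each library pooled unilateral punches of 3 mice, so n = 3 pools a group, and the spread between animals was not measured. No saline library of day 6 was analysed here, so for CFA6D the day and the CFA cannot be told apart.

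Opioid receptors are G protein-coupled receptors of the Gi/o class. Their activation lowers cyclic AMP, opens potassium channels and closes presynaptic calcium channels, which dampens firing and transmitter release of nociceptors, the sensory neurons that report tissue damage. Oprm1 encodes the mu receptor, the main target of morphine, Oprd1 the delta receptor, Oprk1 the kappa receptor and Oprl1 the nociceptin receptor. Penk, Pdyn and Pnoc encode the precursors of enkephalins, dynorphins and nociceptin, which are cut out at pairs of basic residues. The neurons of the TG carry pain from the face and the TMJ, and the question of the comparison was whether the mRNA of these receptors and peptides moved with joint inflammation.

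About 30.07 to 42.33 M read pairs stood behind a library, as estimated from the smallest steps of the FPKM values, so that 1 read pair on 1 kb stood for 0.0236 to 0.0333 FPKM. The markers of the labelled tissue were present: none of 12 neuronal and 11 nociceptor markers was at 0 in any library, and their sums ranged from 2561 to 3830 and from 460.7 to 733.7 FPKM. Some libraries stood apart. The summed FPKM of 8 pituitary markers was 10680 in saline replicate 3, 1127 in CFA6D replicate 4 and 417.2 in CFA6D replicate 5, against 17.67 to 108.9 in the other 6 libraries. Pomc, which is 1 of the 8, made up 342.9 of the 417.2 FPKM in CFA6D replicate 5. Without Pomc the sums were 10440, 845.3 and 74.39 FPKM in these 3 libraries and 14.77 to 106.5 FPKM in the others, so that CFA6D replicate 5 then lay within the range of the others. Pcsk1 was at a like level in all libraries. CFA6D replicate 6 had 2630 FPKM of neutrophil and marrow markers, against 23.57 to 132.2 in the others, and saline replicate 2 had the highest sums of muscle and adipocyte markers. CFA6D replicate 4 had the lowest sum of central nervous tissue markers, 70.16 against 127.7 to 192.9 FPKM in the others. In bulk tissue, fewer cells of a type and less RNA per cell cannot be told apart.

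Oprm1 was the most abundant of the 7 genes in every library. Its mean over the 9 libraries was 12.15 FPKM, higher than 71.8% of the gene sums tested. The gene lies on chromosome 10 of GRCm38 (chr10:6758506-7038198, plus strand). The gene sum was 15, 10.1 and 9.15 FPKM in saline replicates 1, 2 and 3. On CFA3D it was 11.6, 11.3 and 13.0 FPKM, and on CFA6D it was 14.2, 13.8 and 11.2 FPKM. The CFA libraries all lay within the range of the saline group, whose replicate 1 was the highest library of all and whose replicate 3 was the lowest. These levels stood on about 673 to 1055 read pairs a library, so counting error was small beside the spread between pools.

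No difference in Oprm1 passed the test. In limma across all gene sums the log2 fold change was 0.10 ± 0.17 (SE) on CFA3D (unadjusted p = 0.580, adjusted p = 0.997) and 0.22 ± 0.17 on CFA6D (unadjusted p = 0.238, adjusted p = 0.693). The 95% confidence interval on CFA6D ran from 0.887-fold to 1.53-fold, so a fold of 2 lay outside it. The result turned on saline replicate 1: without it the log2 fold change on CFA6D was 0.43 with an unadjusted p = 0.0077 in limma, still below the change of 1 on the log2 scale that a call required. On CFA3D it was then 0.31 (unadjusted p = 0.0339 in limma), and over both days 0.37 (unadjusted p = 0.00933 in limma, exact permutation p = 0.0357). This permutation p was the share of splits with a difference at least as large in size. It lacked the doubling of the smaller tail used with all 9 libraries, and so can come out smaller. Without saline replicate 3, the library with the highest pituitary marker sum, the estimate was 0.08 on CFA6D and -0.04 on CFA3D.

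The annotation holds 31 transcripts of Oprm1, and the tested ones differ in the end of the coding sequence, which encodes the intracellular tail of the receptor. Of the 31, 6 were tested, 11 were at 0 in all libraries, and the other 14 had a mean under 0.1 FPKM. All 6 tested transcripts share 1158 coding bases. Their coding ends are printed 5′ to 3′ up to the stop codon, since this is where the proteins part. Lower case marks the last 12 shared bases and capitals mark the bases that follow (GENCODE M21, GRCm38, plus strand).
Oprm1-215: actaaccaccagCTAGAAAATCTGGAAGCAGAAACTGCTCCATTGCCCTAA
Oprm1-211: actaaccaccagGTATGTGCTTTCTAG
Oprm1-212: actaaccaccagTGGCAAGGCTAG
Oprm1-201: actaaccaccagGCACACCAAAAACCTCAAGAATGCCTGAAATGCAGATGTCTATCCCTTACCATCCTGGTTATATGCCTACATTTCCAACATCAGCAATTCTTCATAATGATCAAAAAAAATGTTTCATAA
Oprm1-216: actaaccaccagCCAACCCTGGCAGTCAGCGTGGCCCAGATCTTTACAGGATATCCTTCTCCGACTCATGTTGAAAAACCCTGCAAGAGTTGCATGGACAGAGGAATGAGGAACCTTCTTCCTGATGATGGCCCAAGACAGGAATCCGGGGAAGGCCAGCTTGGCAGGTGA
Oprm1-205: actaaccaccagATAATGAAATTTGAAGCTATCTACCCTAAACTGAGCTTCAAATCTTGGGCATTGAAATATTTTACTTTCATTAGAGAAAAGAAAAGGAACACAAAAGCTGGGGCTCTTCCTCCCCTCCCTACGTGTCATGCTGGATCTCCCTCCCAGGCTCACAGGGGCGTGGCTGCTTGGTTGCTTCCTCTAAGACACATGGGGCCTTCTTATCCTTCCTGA
The tails add 36 coding bases in Oprm1-215, 12 in Oprm1-211, 9 in Oprm1-212, 117 in Oprm1-201, 156 in Oprm1-216 and 210 in Oprm1-205, before the stop codon. The encoded receptors are 398, 390, 389, 425, 438 and 456 codons long in that order. The tail of Oprm1-215 lies at chr10:6849806-6849844 and that of Oprm1-211 at chr10:6830498-6830512. The tail of Oprm1-205 lies at chr10:6832517-6832729, that of Oprm1-212 at chr10:6831937-6831948 and that of Oprm1-201 at chr10:6838405-6838524. The tail of Oprm1-216 spans 3 coding exons between chr10:6979616 and chr10:7037161.

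Oprm1-215, whose tail of 36 bases is printed first, was the steady part of the gene. It was 6.41, 5.67 and 5.10 FPKM in saline, 6.69, 6.08 and 5.60 on CFA3D, and 5.39, 7.52 and 6.00 on CFA6D. It held 50.6 ± 7.20% (SD, n = 9) of the gene sum, between 38.0% and 57.6% in single libraries. Its SD within groups was 0.18 on the log2 scale, close to the median of all gene sums of 0.19.

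Oprm1-211, the transcript with the short tail of 12 bases, was the next in level and far less even. In saline it was 7.70, 1.13 and 3.61 FPKM. On CFA3D it was 4.08, 4.57 and 1.24 FPKM, and on CFA6D it was 3.80, 5.62 and 4.66 FPKM. Its share of the gene sum ranged from 9.56% to 51.3%, and its highest and 2 of its lowest values fell in saline replicates 1 and 2 and in CFA3D replicate 3. Oprm1-211 is annotated with 3 exons, and 142 of its 1366 bases lie in no other annotated transcript. Total RNA was sequenced without poly-A selection, and the part of RNA not yet spliced in these values was not tested.

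The other tails appeared in single libraries rather than in groups. Oprm1-205 was 3.62 FPKM in CFA3D replicate 3 and 3.27 FPKM in CFA6D replicate 4, and 0 in the other 7 libraries. Oprm1-212 was 1.39 and 1.07 FPKM in those same libraries, and 0.0811 to 0.160 FPKM elsewhere. Oprm1-216 was 2.73 FPKM in saline replicate 2, 0.0101 in saline replicate 3, 0.0416 in CFA6D replicate 4 and 0 in the rest, and Oprm1-201 was 0.712 FPKM in CFA3D replicate 3 and at most 0.0771 FPKM in the others. The 2 libraries lowest in Oprm1-211 (saline replicate 2 and CFA3D replicate 3) were among the 3 that held another tail above 1 FPKM. Oprm1-212, Oprm1-216 and Oprm1-201 were named after their values were seen. No Oprm1 transcript had an unadjusted p under 0.05 in limma in any comparison.

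**Figure D1:**
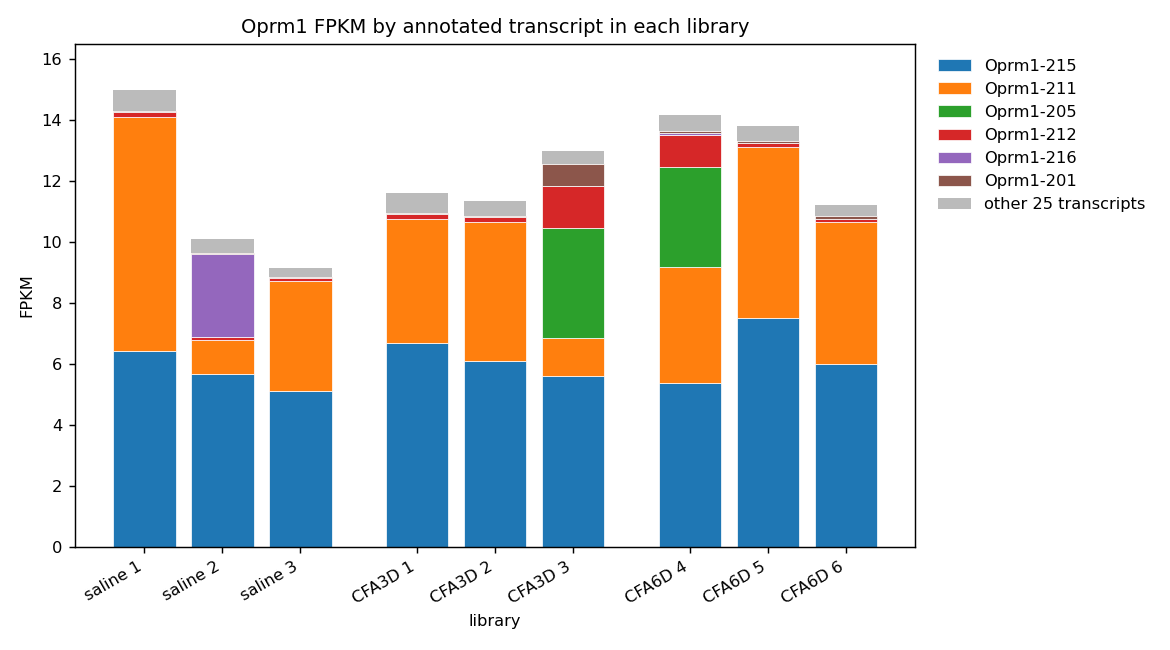
Stacked bars give the FPKM of each Oprm1 transcript (vertical axis) in each of the 9 libraries (horizontal axis), with the 25 transcripts of a mean under 0.1 FPKM in grey. Oprm1-215 lies between 5.10 and 7.52 FPKM throughout, whereas Oprm1-205 is present in CFA3D replicate 3 and CFA6D replicate 4, and Oprm1-216 in saline replicate 2.

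The SD within groups of Oprm1-205 was 2.43 on the log2 scale, against 0.25 for the gene sum and a median of 0.42 over all tested transcripts. Counted over the opioid genes, 6 of 21 tested transcripts (28.57%) were under 0.05 FPKM in a library and at 1 FPKM or more in another, which held for 5.19% of the 66206 annotated transcripts tested. All 6 belonged to Oprm1 or Oprl1, which have 31 and 11 annotated transcripts. The 5.19% was not matched for the number of transcripts a gene has, so the shares describe no trait of opioid genes. The bases that lie in no other annotated transcript differ in number among the 6 tested transcripts. They were 142 of the 1366 bases of Oprm1-211, 194 of the 1695 of Oprm1-205 and 276 of the 1500 of Oprm1-201. In Oprm1-215 they were 296 of 2369, in Oprm1-212 580 of 2053 and in Oprm1-216 652 of 2420. On the opposite strand the gene overlaps Ipcef1 over 152403 bp and Gm10945 over 3256 bp. The libraries were stranded, and whether strand was used in the counting is not given in the sources used here.

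Oprl1, the nociceptin receptor, was the second receptor in level, with a mean of 5.41 FPKM (chr2:181715016-181720985, plus strand). Its gene sum was 5.37, 5.48 and 2.29 FPKM in saline, 5.22, 5.85 and 6.64 on CFA3D, and 7.44, 4.97 and 5.46 on CFA6D. Saline replicate 3 stood apart at less than any other library, and the remaining 8 libraries overlapped between groups. Not all of the sum came from transcripts that encode the receptor. Oprl1-209, annotated as a target of nonsense-mediated decay, held 67.97% of it in CFA3D replicate 2 and 3.77% to 15.31% elsewhere. The noncoding Oprl1-206 held 45.04% in CFA6D replicate 4, 9.92% in CFA6D replicate 5 and 0% elsewhere. A sum of the coding transcripts alone was not tested. For both CFA days together the log2 fold change of the gene sum in limma was 0.52 ± 0.26 (unadjusted p = 0.0823, adjusted p = 0.678). Without saline replicate 3 it was 0.11 (unadjusted p = 0.505), and without saline replicate 1 or 2 it was 0.71 or 0.72 (unadjusted p = 0.0452 and 0.0371). Saline replicate 3 also had the highest pituitary and the lowest neuronal and nociceptor marker sums. Over the 9 libraries Oprl1 had Pearson's r = 0.829 with the neuronal sum (exact permutation p = 0.00720, adjusted p = 0.271). Spearman's rho was 0.583 (exact permutation p = 0.108, adjusted p = 0.756), and r was 0.390 without the 2 farthest libraries. With the nociceptor sum r was 0.841 (exact permutation p = 0.0337, adjusted p = 0.314), and 0.420 without the 2 farthest. The part of these tissues in the low Oprl1 of saline replicate 3 was not tested.

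Which Oprl1 transcript carried the gene differed from library to library. Oprl1-202 was 2.60, 3.46 and 0.309 FPKM in saline, 0.223, 0.0246 and 4.31 on CFA3D, and 0.0291, 2.74 and 0.0287 on CFA6D. In 4 of the 5 libraries with Oprl1-202 under 1 FPKM another transcript was above 1 FPKM, the exception being saline replicate 3. Oprl1-205 reached 3.41 FPKM in CFA3D replicate 1 and 2.69 FPKM in CFA6D replicate 6, and was 0.0225 to 0.451 FPKM in the other 7. Oprl1-209, annotated as a target of nonsense-mediated decay, was 3.98 FPKM in CFA3D replicate 2 and 0.207 to 0.724 FPKM elsewhere. A comparison resting on Oprl1-202 alone had the opposite sign to the gene sum, with a log2 fold change of -2.13 on CFA6D in limma (unadjusted p = 0.223).

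Only 2 of the 21 opioid transcripts were called, both of Oprl1 and both on CFA6D. A call needed both an unadjusted p under 0.05 and a change of 1 or more in size on the log2 scale, which 2.57% of all 66562 transcripts met for CFA6D against saline and 2.23% for CFA6D against CFA3D. Oprl1-206, a noncoding transcript, was at 0 in all saline and CFA3D libraries and at 3.35, 0.493 and 0 FPKM in CFA6D replicates 4, 5 and 6. Oprl1-207 was 0.496, 0 and 0 FPKM in saline, 0.0995, 0 and 0.30 on CFA3D, and 1.93, 0.299 and 1.48 on CFA6D. Their levels thus overlapped between the groups, and CFA6D replicate 4 was the highest library for both.

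For Oprl1-207 the log2 fold change of (FPKM + 0.1) in limma was 2.58 ± 0.89 against saline (unadjusted p = 0.0189, adjusted p = 0.653) and 2.44 ± 0.89 against CFA3D (unadjusted p = 0.0243, adjusted p = 0.918). For Oprl1-206 the unadjusted p was 0.0382 against each group (adjusted p = 0.708 and 0.918). The fold change of Oprl1-206 has no fixed size, since both other groups were listed at 0. Neither transcript has a base of its own: all 2297 bases of Oprl1-206 and all 640 bases of Oprl1-207 lie in other annotated Oprl1 transcripts. Against saline, Oprl1-207 missed the threshold without saline replicate 2, saline replicate 3, CFA6D replicate 4 or CFA6D replicate 6 (log2 fold changes of 2.15, 2.15, 2.13 and 2.31, unadjusted p = 0.0662, 0.0667, 0.0684 and 0.0593 in limma). Against CFA3D it missed it without CFA3D replicate 1, CFA3D replicate 2, CFA6D replicate 4 or CFA6D replicate 6 (2.44, 1.94, 1.99 and 2.17, unadjusted p = 0.0526, 0.0853, 0.0846 and 0.0728 in limma). Oprl1-206 passed only when all libraries were used or CFA6D replicate 6, where it was 0, was left out (unadjusted p = 0.000565 in limma); leaving out any of 7 other libraries gave an unadjusted p of 0.0521 to 0.0769, and without CFA6D replicate 4 no value was obtained. No opioid transcript was called for CFA3D against saline or for both CFA days against saline, where 2.19% and 1.86% of all transcripts were.

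**Figure D2:**
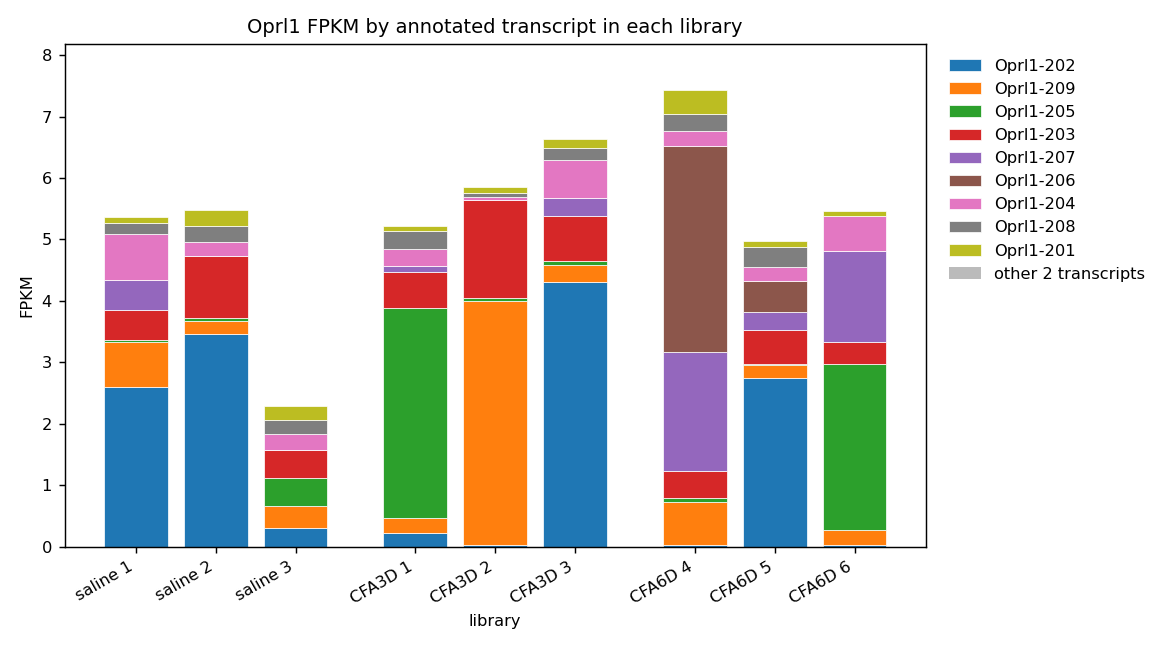
Stacked bars give the FPKM of each Oprl1 transcript (vertical axis) in each of the 9 libraries (horizontal axis). The total is 2.29 FPKM in saline replicate 3 and 4.97 to 7.44 FPKM elsewhere, while the leading transcript changes from library to library within every group.

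Oprd1, the delta receptor, had 1 annotated transcript, so that no assignment among transcripts entered its value (chr4:132110726-132144486, minus strand). It was 1.67, 1.39 and 1.42 FPKM in saline, 1.77, 1.69 and 1.79 on CFA3D, and 1.83, 1.25 and 1.92 on CFA6D. All CFA3D libraries lay above all saline libraries, if narrowly (1.69 against 1.67 FPKM at the nearest), and 9.13% of all gene sums had no overlap between these groups. The log2 fold change on CFA3D was 0.22 ± 0.18 in limma (unadjusted p = 0.259), and the interval ran from 0.875-fold to 1.55-fold. CFA6D replicate 5 was the lowest of all libraries, and the other 5 CFA libraries lay above every saline library. The exact permutation test of both CFA days against saline, with the smaller tail doubled, gave p = 0.286 over 9 libraries. When CFA6D replicate 5 was left out, the test took the share of splits with a difference at least as large in size. That exact permutation p was 0.0179. Without the doubling the p can come out smaller, so these p-values are not alike.

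Oprk1, the kappa receptor, was the least abundant receptor (chr1:5588466-5606131, plus strand). Its gene sum was 0.440, 0.138 and 0.353 FPKM in saline, 0.446, 0.406 and 0.215 on CFA3D, and 0.643, 0.877 and 0.372 on CFA6D. CFA6D replicates 4 and 5 were above all other libraries, and CFA6D replicate 6 lay within the saline range. These values stood on about 13.1 to 102 read pairs. Not all of the sum was coding. Oprk1-205 and Oprk1-202, annotated as retained introns, had means of 0.105 and 0.0526 FPKM, beside 0.123 FPKM for the coding Oprk1-203. They held 58.65% and 29.48% of the sum in saline replicate 2, and 32.67% and 30.07% in CFA6D replicate 6. Over the 9 libraries their shares ran from 14.55% to 58.65% and from 0.162% to 31.97%. Oprk1-202 was named after its values were seen.

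Of the 7 genes, Oprk1 on CFA6D came nearest to the threshold. The log2 fold change against saline was 0.85 ± 0.40 in limma (unadjusted p = 0.0602, adjusted p = 0.480), or 1.81-fold with an interval from 0.970-fold to 3.37-fold. It met the call without saline replicate 1 (1.09, unadjusted p = 0.0370) and without CFA6D replicate 6 (1.14, unadjusted p = 0.0209). Without saline replicate 2, the lowest library, it was 0.50 (unadjusted p = 0.223). Between the days it was 0.66 ± 0.40 (unadjusted p = 0.132), and 0.94 (unadjusted p = 0.0459) without CFA6D replicate 6, with limma used throughout.

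The precursors carry their active peptides as short stretches that begin with the same kind of core. The opioid core is tyrosine, 2 glycines and phenylalanine, followed by methionine or leucine, and nociceptin has phenylalanine in place of the tyrosine. A search of the coding sequences in frame, for a first codon of tyrosine or phenylalanine followed by glycine, glycine and phenylalanine, found 7 copies in Penk, 3 in Pdyn and 1 in Pnoc, each directly after a pair of codons for basic residues. One copy of each kind is printed 5′ to 3′ on the coding strand, with the first and the fifth codon in capitals (GENCODE M21, GRCm38, minus strand), to show what tells the peptides apart.
Penk, methionine type: TACggaggcttcATG
Penk, leucine type: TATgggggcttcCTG
Pdyn, leucine type: TATggcggctttTTG
Pnoc: TTTgggggcttcACC
The first of these in Penk, at chr4:4134334-4134348, was 1 of 6 copies of the methionine type, and the leucine type at chr4:4133941-4133955 was the only such copy in that gene. The stretch of Pdyn lies at chr2:129688238-129688252 and that of Pnoc at chr14:65404878-65404892.

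Penk was the only precursor well above the level of a few reads (chr4:4133531-4138819, minus strand), and the most variable of the genes above 1 FPKM. It was 4.84, 3.06 and 4.33 FPKM in saline, 2.94, 5.69 and 1.57 on CFA3D, and 0.818, 4.51 and 3.26 on CFA6D. The groups overlapped in full, with the highest library and the second lowest both on CFA3D. The SD within groups was 0.90 on the log2 scale, against the median of 0.19 over all gene sums. On CFA6D the log2 fold change was -0.76 ± 0.60 in limma (unadjusted p = 0.234), with an interval from 0.232-fold to 1.5-fold, and without CFA6D replicate 4 it was -0.06.

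The level of Penk was compared with the marker sums of other cells across the libraries. The sum of 7 macrophage markers was 65.18, 55.45 and 52.25 FPKM in saline, 54.82, 73.31 and 43.89 on CFA3D, and 31.55, 49.9 and 52.77 on CFA6D. Both were highest in CFA3D replicate 2 and lowest in CFA6D replicate 4, and both were next to lowest in CFA3D replicate 3. Over the 9 libraries the relation had Pearson's r = 0.908 (exact permutation p = 0.00234) and Spearman's rho = 0.683 (exact permutation p = 0.0503), and r = 0.686 without the 2 libraries farthest from the median. By Pearson's r it was the strongest of 112 relations between the 7 genes and 16 marker lists, and the adjusted p-values were 0.262 and 0.705, so it did not pass. With 7 fibroblast and meningeal markers r was 0.842 (exact permutation p = 0.0121, adjusted p = 0.271), with rho = 0.683 (exact permutation p = 0.0503, adjusted p = 0.705), and r = 0.432 without the 2 farthest libraries. With neuronal markers r was -0.775 (exact permutation p = 0.00999, adjusted p = 0.271), with rho = -0.633 (exact permutation p = 0.0760, adjusted p = 0.756), and r = -0.717 without the 2 farthest. Endothelial markers had the highest rho of all 112 relations (rho = 0.817, exact permutation p = 0.0108, adjusted p = 0.476), with r = 0.70 (exact permutation p = 0.0201, adjusted p = 0.282), and r = 0.855 without the 2 farthest libraries. For central nervous tissue markers, lowest in CFA6D replicate 4, r was 0.712 (exact permutation p = 0.110, adjusted p = 0.649). Their rho was 0.40 (exact permutation p = 0.291, adjusted p = 0.926), and r was -0.162 without the 2 farthest. The part of these cells in the level of Penk was not tested. Relations of other genes were among the 112 too, such as those of Oprl1 given above. Oprm1 with nociceptor markers had r = 0.764 (exact permutation p = 0.0176, adjusted p = 0.282), and r = 0.536 without the 2 farthest libraries. Penk overlaps A830012C17Rik on the opposite strand over 499 bp.

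Pdyn, the dynorphin precursor, was near the limit of detection in most libraries (chr2:129686565-129699844, minus strand). It was 0.0953, 0.153 and 0.870 FPKM in saline, 0.0661, 0.0954 and 0.0786 on CFA3D, and 0.204, 0.394 and 0.110 on CFA6D. The 3 highest libraries were saline replicate 3, CFA6D replicate 5 and CFA6D replicate 4, the same 3 that had the highest sums of the 8 pituitary markers. Without Pomc in the sum the match did not hold, since saline replicate 1 (106.5 FPKM) then came before CFA6D replicate 5 (74.39 FPKM). The single markers differed in this. Cga, which encodes the shared subunit of pituitary glycoprotein hormones, was 158.5, 8.04 and 6.63 FPKM in saline replicate 3, CFA6D replicate 4 and CFA6D replicate 5, and at most 0.709 FPKM elsewhere. Prl, Lhb and Pou1f1 were also highest in these 3 libraries, but Gh, Tshb and Pcsk1 were not. In CFA6D replicate 5 Gh was 44.6 and Tshb 0.367 FPKM, against 92.7 and 0.564 FPKM in saline replicate 1. Outside these 3 libraries Pdyn was 0.0661 to 0.153 FPKM, or about 6.68 to 9.98 read pairs. No correlation is given for Pdyn and the pituitary markers, because the libraries fell into separate clusters, and the part of pituitary RNA in Pdyn was not tested.

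The comparisons of Pdyn turned with these libraries. The log2 fold change on CFA3D was -1.02 ± 0.58 in limma (unadjusted p = 0.111), and it was -0.31 (unadjusted p = 0.464) without saline replicate 3 but -1.46 (unadjusted p = 0.0382) without saline replicate 1. All CFA6D libraries lay above all CFA3D libraries, which held for 16.7% of all gene sums in 1 direction or the other, with a log2 fold change of 0.82 ± 0.58 (unadjusted p = 0.190 in limma). Against saline the estimate on CFA6D was -0.20 with all libraries and 0.51 without saline replicate 3.

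**Figure D3:**
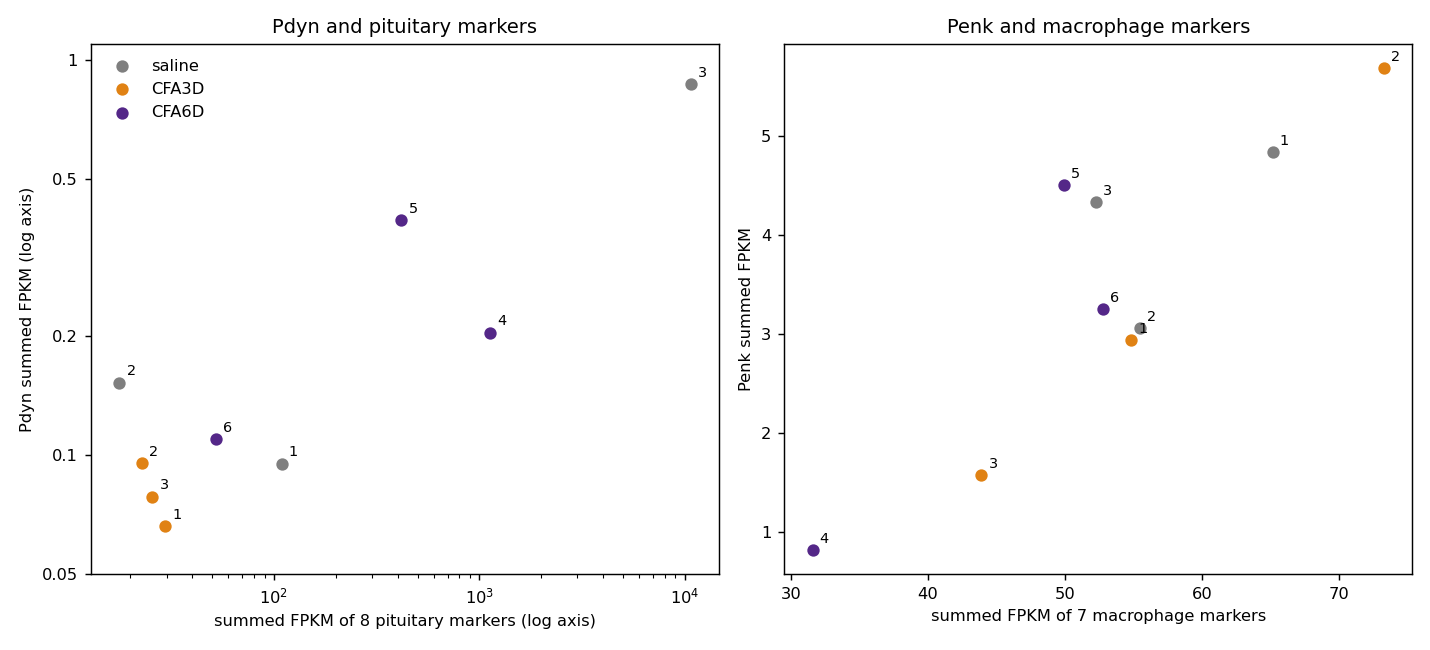
Each point is a library, numbered by replicate and coloured by group. On the left, Pdyn is plotted against the summed FPKM of 8 pituitary markers, both on log axes, with saline replicate 3 and CFA6D replicates 4 and 5 at the upper right. On the right, Penk is plotted against the summed FPKM of 7 macrophage markers on linear axes, with CFA6D replicate 4 lowest and CFA3D replicate 2 highest in both.

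Pnoc, the nociceptin precursor, was the lowest of the 7 (chr14:65400673-65425472, minus strand). It was 0.0884, 0.246 and 0.185 FPKM in saline, 0.137, 0.112 and 0.213 on CFA3D, and 0.0704, 0.244 and 0.0874 on CFA6D, on about 5.46 to 16.8 read pairs. No transcript of Pnoc reached a mean of 0.1 FPKM. The ranges of the groups overlapped, and the log2 fold change on CFA6D was -0.25 ± 0.38 in limma (unadjusted p = 0.519). The gene sum of Oprl1, noncoding transcripts included, thus stood on 205 to 591 read pairs a library and the precursor of its ligand on at most 16.8.

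**Figure D4:**
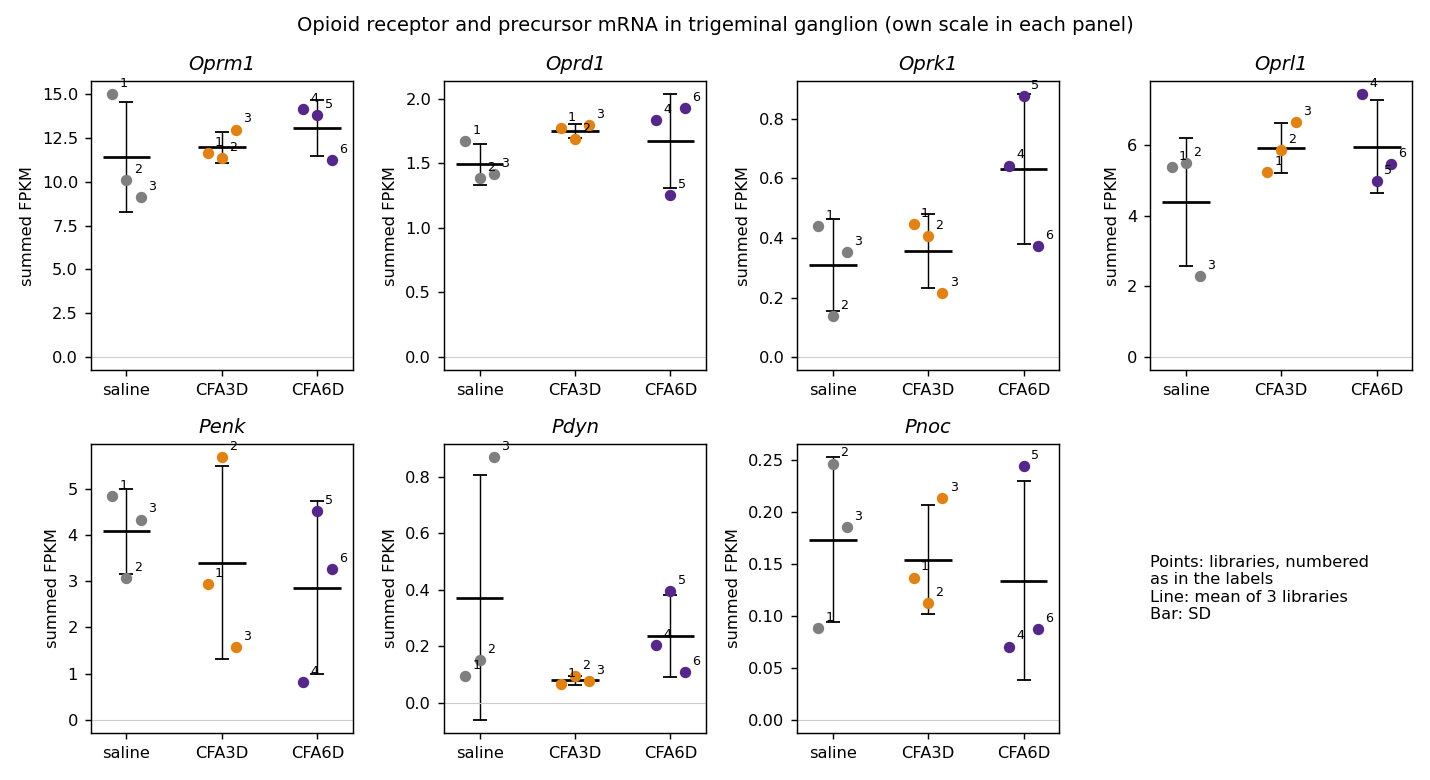
Points give the gene sum in FPKM (vertical axis, own scale in each panel) of the 7 opioid genes in each library, numbered by replicate, for the 3 groups (horizontal axis), with the mean as a line and the SD as a bar (n = 3). Groups overlap in every comparison with saline except Oprd1 on CFA3D, and saline replicate 3 is the lowest library for Oprl1 and the highest for Pdyn.

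The order of the mean levels was Oprm1, Oprl1, Penk, Oprd1, Oprk1, Pdyn and Pnoc. Neighbours were compared within libraries on the log2(FPKM + 0.1) scale with an exact two-sided sign-flip permutation test over 9 libraries, which allows no p below 0.0039. Oprm1 was above Oprl1 in 9 of 9 libraries, by 2.24-fold in the means (exact permutation p = 0.0039), and Oprd1 was above Oprk1 in 9 of 9, by 3.79-fold (exact permutation p = 0.0039). Penk was above Oprd1 in 7 of 9 libraries and Oprk1 above Pdyn in 7 of 9 (exact permutation p = 0.0352 for each). The difference of Oprl1 from Penk (exact permutation p = 0.0664) and that of Pdyn from Pnoc (exact permutation p = 0.582) did not exceed the spread between libraries. These 6 p-values were not adjusted.

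Over all 4 comparisons, none of the 7 gene sums was called, and none had an unadjusted p under 0.05 in limma. The background was low too. A call was reached by 0.342% of the 16096 gene sums for CFA3D against saline, by 0.584% for CFA6D against saline, by 0.77% for CFA6D against CFA3D and by 0.292% for both CFA days against saline. An unadjusted p under 0.05 was reached by 4.45%, 11.1%, 7.39% and 8.19% of gene sums in these comparisons, and an adjusted p under 0.05 by 0 of 16096 in each. Groups of CFA6D and saline were without overlap in 0 of the 7 genes, and in 16.2% of all gene sums. The median log2 fold change of the 7 genes on CFA6D was 0.14, beside 0.03 over all gene sums. On CFA3D it was 0.10 beside 0.05. An exact permutation test of both days against saline, whose smallest p is 0.0238, gave p-values of 0.238 to 0.571 for the 7 genes.

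**Figure D5:**
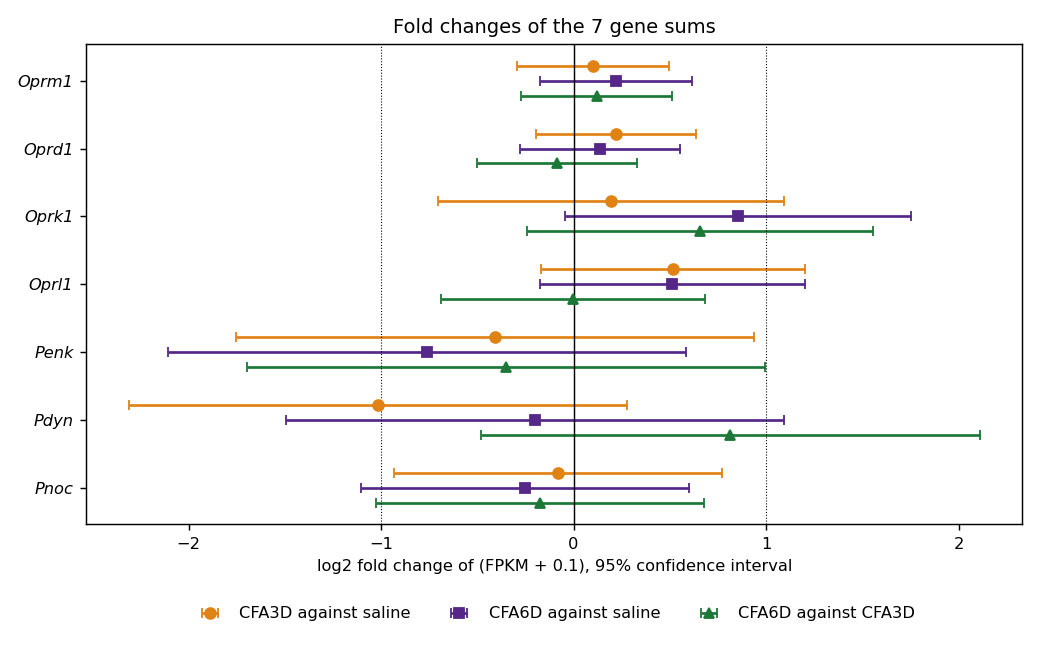
Symbols give the log2 fold change of (FPKM + 0.1) of each of the 7 gene sums (horizontal axis) in 3 comparisons, with the 95% confidence interval from limma as a bar, and dotted lines mark a change of 1 in either direction. All intervals include 0, and those of Oprm1 and Oprd1 stay inside the dotted lines.

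Genes that varied most like the opioid genes over the 9 libraries were found by Pearson's r of the log2 values among the 13174 or 13175 other gene sums whose mean reached 1 FPKM. These are descriptions over libraries that share depth and tissue makeup. For Oprm1 they were Grik1 (r = 0.985), which encodes a kainate receptor subunit of sensory neurons, Akap11 (0.959) and Mrgprb4 (0.955), a receptor of skin-innervating sensory neurons. For Oprl1 they were Pdlim7 (0.978), Dpysl4 (0.968) and Slc6a19 (0.959). For Penk they were Cd302 (0.965), Egfr (0.963), the receptor of epidermal growth factor, and Chrm3 (0.956), a muscarinic receptor. For Pdyn they were Lhb and Cga, which encode the subunits of the pituitary hormone LH, and Stk32a (0.946). Lhb and Cga are pituitary markers and were highest in the same libraries as Pdyn. Their r is not printed, because the libraries fell into separate clusters. Those of Oprd1 were Vstm2b, Usp39 and Alg3 (0.917 to 0.927), and those of Oprk1 were Taf3, Desi2 and Eif4b (0.932 to 0.954). Among the genes given here, only those of Pdyn included genes of the marker lists.

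Pomc, the precursor of beta-endorphin and the remaining classical opioid precursor, lies outside the 7 genes and is also 1 of the 8 pituitary markers. It was 2.42, 0.798 and 244.8 FPKM in saline, 1.27, 7.90 and 8.66 on CFA3D, and 281.9, 342.9 and 10.5 on CFA6D. The 3 libraries with over 200 FPKM were the same 3 in which Pdyn was highest. All CFA6D libraries lay above all CFA3D libraries, if narrowly (10.5 against 8.66 FPKM at the nearest), and saline overlapped with both. Between these days 16.7% of all gene sums had no overlap, in 1 direction or the other. The log2 fold change was 4.46 ± 2.03 in limma (unadjusted p = 0.0540, adjusted p = 0.676). Pomc did not pass the test in any comparison.

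The signalling partners of the receptors were taken from 9 lists of 127 genes, of which 123 were tested. For CFA6D against saline 17 had an unadjusted p under 0.05 and were higher, and 1 was lower. Over all gene sums 8.22% were higher at this threshold. For CFA3D 3 were higher and 1 lower, where 4.45% of all gene sums passed in either direction. No partner gene had an adjusted p under 0.05 in any comparison (the lowest on CFA6D was 0.191, for Gnao1). Without saline replicate 2 the 17 became 10 and without saline replicate 3 they became 9. The median log2 fold change of the 123 genes on CFA6D was 0.09, beside 0.03 over all gene sums.

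Gi/o and Gz alpha subunits, the first proteins that the receptors engage, were higher on CFA6D in 4 of 5 cases at an unadjusted p under 0.05 in limma. The share of all gene sums that were higher at this threshold was 8.22%, beside which the counts of these short lists stand. The log2 fold changes were 0.39 for Gnao1, 0.34 for Gnai2, 0.34 for Gnaz and 0.15 for Gnai1, and these genes were named after their values were seen. Effector channels had 4 of 8 tested members higher, all of them calcium channel subunits (Cacna1a, Cacna1b, Cacna1c and Cacna2d1, 0.24 to 0.34, also named after their values were seen), and no potassium channel subunit of the list passed. None of these 8 reached a log2 fold change of 0.5. Some neuronal markers were also higher on CFA6D. At the same threshold 5 of 12 were higher (Rbfox3 by 0.67, Nefm by 0.60 and Pou4f1 by 0.56 among them) and 0 lower, with a list median of 0.18. Of 11 nociceptor markers 4 were higher and 0 lower (median of 0.21). Of 6 mechanoreceptor and proprioceptor markers 2 were higher and 1 lower (median of 0.12). The part of neuronal RNA in the higher values of the partner genes was not tested.

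Among the enzymes and regulators few genes passed. Of 14 enzymes that cut, trim or amidate the precursors, 1 was higher on CFA6D, and of 13 enzymes that break opioid peptides down, 1 was lower, Mmel1, a relative of neprilysin (log2 fold change of -0.92 ± 0.33 in limma, unadjusted p = 0.0195, adjusted p = 0.334). Of 20 receptor kinases, arrestins and RGS proteins 3 were higher, of which Rgs19, which speeds the shut-off of Gi/o alpha subunits, changed most (0.62 ± 0.25, unadjusted p = 0.0335, adjusted p = 0.402). Of 15 beta and gamma subunits 1 was higher on CFA6D, and Gnb3 was called lower on CFA3D (-1.68 ± 0.62, unadjusted p = 0.0236, adjusted p = 0.997). Of 9 adenylyl cyclases, the enzymes that the receptors inhibit, 1 was higher on CFA6D, and none of 11 tested trafficking and partner proteins passed.

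Other receptors of the Gi/o class were compared as a reference for the 4 opioid receptors. On CFA6D 3 of 28 tested were higher at an unadjusted p under 0.05 and none was lower, a share near the 8.22% of all gene sums. Grm2, a metabotropic glutamate receptor, had the largest of these changes (0.63 ± 0.25, unadjusted p = 0.0337, adjusted p = 0.402 in limma). Their median log2 fold change was 0.26 on CFA6D and 0.11 on CFA3D, and on CFA6D the values of Oprm1, Oprd1, Oprk1 and Oprl1 were 0.22, 0.14, 0.85 and 0.51.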

How the data were processed

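RNA of 9 TG libraries was analysed, 3 a group, grouped by their labels. Per the study's methods, ribosomal RNA was depleted, stranded libraries were made, and trimmed reads were mapped to GRCm38. The submitters' processing notes list Bowtie 0.12.2 and mm8 instead. The tables of mRNA, lncRNA and other noncoding transcripts hold the FPKM that the authors deposited; the methods do not mention FPKM. The FPKM columns of all samples were used (0 left out). The noncoding tables hold no transcript of the 7 genes. Of 102122 mRNA transcripts, 101539 matched GENCODE M21 by identifier, which gave gene names, coordinates and sequences.

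FPKM was summed per gene. Features whose mean reached 0.1 FPKM were fitted as log2(FPKM + 0.1) in limma 3.58.1 (R 4.3.3), with 3 groups, all 9 libraries and empirical Bayes with a trend. Fold changes are on this scale and understate the change of low genes. A call required both an unadjusted p under 0.05 and a change of 1 or more in size on the log2 scale. Benjamini-Hochberg adjustment covered all features tested. The fits were checked on simulated data. Read pairs were estimated from the FPKM steps and are approximate. Between groups of 3 an exact permutation p cannot go below 0.1, so single genes were tested that way only for both days together. With all 9 libraries and the main pseudocount the smaller tail was doubled. For the alternatives of this test, the p was the share of splits with a difference at least as large in size. Other steps ran in Python 3.11.15 with pandas 2.3.3, numpy 2.4.6, scipy 1.17.1 and matplotlib 3.10.9.

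The 7 genes and all lists were chosen with earlier results of these data known. Named genes were the 7 members, their transcripts with the 3 highest means or an unadjusted p under 0.05, and partner genes with such a p whose change reached 0.5 on the log2 scale (at most 3 a list); the 3 gene sums most like each member followed from Pearson's r, and those of Pnoc are not reported here. Alternatives tried were a pseudocount of 0.01 or 1, a filter at 1 FPKM, no filter, shares over tested transcripts alone, quantile normalization, median ratio scaling, fits of only the groups compared, no trend, no fold change minimum, calls on the adjusted p, the leading transcript in place of the gene sum, sums over all 3 tables, a replicate block and leaving out each library. Leaving out saline replicate 3 and CFA6D replicate 6 together, the pituitary sum without Pomc, and the alternatives for partner genes and permutation tests, were chosen after seeing the data.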

Additional observations from a re-analysis of the deposited data

Results flagged for a closer look

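For 2 transcripts of the nociceptin receptor the unadjusted p between the CFA days was under 0.05, while the adjusted p was not and the days overlapped. Oprl1-206 had a log2 fold change of 2.56 for CFA6D against CFA3D (unadjusted p = 0.0382, adjusted p = 0.918 in limma), a size set by the pseudocount of 0.1 because CFA3D was listed at 0, with FPKM above 0 in 2 of 3 CFA6D libraries and in none of the CFA3D libraries. Oprl1-207 had 2.44 in the same comparison (unadjusted p = 0.0243, adjusted p = 0.918 in limma), with 2 of 3 CFA6D libraries above all CFA3D libraries. The Oprl1 gene sum differed by 0.00 between the days (unadjusted p = 0.993 in limma). Groups of 3 libraries were too small for a search for single outlying libraries.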

How the results depend on the processing

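The replicate numbers 1 to 3 of saline and CFA3D did not pair the libraries (correlations of same-numbered deviations of 0.09, -0.08 and 0.03), and with the replicate block the count of called gene sums stayed at 0 and that of transcripts at 0. CFA6D shares no number with the other groups. Of 551 fold changes of the 7 gene sums under an alternative, 514 kept their direction and their side of an unadjusted p of 0.05, 11 passed it and 26 turned in direction. None of the 26 passed it. Oprk1, Pdyn and Pnoc were not tested with a filter at 1 FPKM, nor Pnoc by its leading transcript. Left-out libraries gave 0 to 1 called gene sums for CFA3D and for CFA6D against saline. They gave 0 to 1 genes in the permutation test of both days, counted without doubling the smaller tail. They gave 0 to 3 called transcripts for CFA6D against saline, 0 to 1 for CFA6D against CFA3D, 0 to 2 for both days, and 9 to 20 partner genes. With saline replicate 3 and CFA6D replicate 6 left out together, 1 gene sum each was called for CFA6D against saline (Oprk1, 1.25) and against CFA3D (Pdyn, 1.11), 1 transcript each for CFA6D against saline and for both days, and 9 partner genes were higher. The 2 called transcripts of CFA6D against saline became 1 with a pseudocount of 0.01 or only the groups compared, and 0 with a pseudocount of 1, a mean of at least 1 FPKM or the adjusted p. Against CFA3D they became 0, 1, 0, 0 and 0 under the same settings. Partner genes numbered 9 under quantile normalization and 0 by the adjusted p.

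The leading transcript in place of the gene sum gave Oprl1 -1.49 on CFA3D, -2.13 on CFA6D and -1.81 for both days. Between the days Oprl1 (-0.0027 with all libraries) was 0.0089 under quantile normalization, 0.0325 under median ratio scaling and 0.0482 with both named libraries left out. Leaving these out also gave -0.0409 for Oprm1 on CFA3D, -0.0055 for Oprd1 and 0.80 for Pdyn on CFA6D, and 0.25 for Pdyn over both days. Leaving out single libraries gave ranges of -0.0409 to 0.31 for Oprm1, -0.16 to 0.44 for Oprk1, -0.86 to 0.0325 for Penk and -0.33 to 0.11 for Pnoc on CFA3D. Between the days these were -0.19 to 0.10 for Oprd1, -0.17 to 0.11 for Oprl1, -0.82 to 0.35 for Penk and -0.49 to 0.0186 for Pnoc. For Pdyn they were -0.65 to 0.51 on CFA6D and -1.06 to 0.10 over both days, and for Pnoc -0.41 to 0.0268 over both days. The causes were not tested.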

Other observations

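The alternative tails of Oprm1 and the total of the gene were compared library by library. The FPKM of all Oprm1 transcripts other than Oprm1-215 was 8.59, 4.42 and 4.05 in saline, 4.92, 5.25 and 7.38 on CFA3D, and 8.79, 6.30 and 5.23 on CFA6D. The 3 libraries with the highest such values, CFA6D replicate 4, saline replicate 1 and CFA3D replicate 3, came from 3 different groups. In saline replicate 1 nearly all of it was Oprm1-211 (7.70 FPKM), whereas in CFA3D replicate 3 that transcript was 1.24 FPKM beside 3.62 FPKM of Oprm1-205.

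Penk-202, the shorter Penk transcript with 534 coding bases, was 0.261, 0.393 and 0.420 FPKM in saline, 0.115, 0.50 and 0 on CFA3D, and 0.0634, 0.682 and 0 on CFA6D, with a within-group SD of 1.18 on the log2 scale.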
